A study of Mus musculus with 2 samples.

Results

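The histone genes of the mouse were taken as all protein-coding genes of GENCODE release M21 whose symbol begins with Hist1h, Hist2h, Hist3h, Hist4h, H2af, H3f3 or H1f. The rule names 82 genes, of which 79 have an entry in the gene tables, out of 43346 annotated genes measured. Of the 79, 64 are named for 1 of the 4 histone gene clusters and are called clustered here. The other 15 carry the names of histone variants and are called replacement genes. The 3 genes without an entry under their own identifier were Hist1h2bm, Hist1h2bh and Hist2h2bb, all clustered H2B genes.

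RNA came from the neural tube, the embryonic tissue of the central nervous system, of healthy B6NCrl mouse embryos at day 15.5 with no treatment or mutation. Replicate 1 was a pool of 78 embryos and replicate 2 a pool of 62, males and females together, so that differences between single embryos are not seen. Both belong to 1 group, 10 ng of total RNA longer than 200 nucleotides entered each library, and a manual for a low-input SMARTer kit is linked. With 1 group of 2 libraries no test between conditions exists, and each value is given per library or as mean ± SD (n = 2).

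Nucleosomes hold DNA on a core of H2A, H2B, H3 and H4, and linker histone H1 binds outside that core. Clustered genes supply most new histones in S phase, when DNA is copied, and their mRNAs typically end in a stem-loop bound by the protein SLBP in place of a poly(A) tail. Replacement genes, such as those for H2A.Z, macroH2A and the H3 variant of H3f3a and H3f3b, are spliced or polyadenylated, are expressed outside S phase too, and supply histones to cells that no longer divide, neurons among them.

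The gene expected counts of replicate 1 came to 34678043 and those of replicate 2 to 41355355, of which histone genes took 152710 (0.440%) and 172338 (0.417%). All 10 neural tube markers were above 1 TPM (a level per transcript length, scaled to a common total) in both libraries, from Olig2 at 7.23 and 8.38 TPM to Fabp7 at 1417 and 1833 TPM, with Tubb3 at 1060 and 1275 TPM and Stmn2 at 871 and 1077 TPM. Markers of thymocytes, developing T cells that the neural tube should lack, were at 1 TPM or more for 9 of 12 genes in replicate 1 and for 1 of 12 in replicate 2. Their summed level was 305 TPM in replicate 1 and 9.86 TPM in replicate 2, and Cd3g was at 93.0 and 0 TPM. All 17 genes of an S phase and mitosis list were also higher in replicate 1, with sums of 958 and 458 TPM. None of 5 germ cell markers reached 1 TPM in either library. In bulk RNA, fewer cells of a type and less RNA per cell cannot be told apart.

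The stem-loop searched for on the transcript strand was 16 letters long, GG, CTTTT, AG and GCC in that order with 2, 1 and 1 free letters between them. It marks the 3′ end that separates most clustered histone mRNAs from other mRNAs. Among 21951 protein-coding genes, 47 (0.214%) held these letters anywhere in an annotated transcript, and 43 of the 47 were genes named by the histone rule. After the stop codon the letters were found in 40 of the 64 clustered members and in 1 of the 15 replacement members, H2afx. Of the clustered members, 50 had at least 30 annotated bases after the stop codon, and all 40 matches were among these. The sites below show the highest clustered members, 1 example of each rarer form, and H2afx. The stem-loop letters are in capitals, and coordinates are on mm10 with the gene's strand.
Hist1h2ap, chr13:21833026-21833049, minus strand: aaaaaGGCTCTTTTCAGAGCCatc
Hist3h2ba, chr11:58949344-58949373, plus strand: ccaaaGGCTCTTTTCAGAGCCaccttccaa
Hist3h2a, chr11:58955167-58955196, plus strand: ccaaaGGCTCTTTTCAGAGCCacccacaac
Hist1h4d, chr13:23581945-23581974, plus strand: ccaaaGGCCCTTTTCAGGGCCactaccttc
Hist1h3e, chr13:23561894-23561923, minus strand: aaaacGGCTCTTTTAAGAGCCacctccatt
Hist1h4i, chr13:22040957-22040986, minus strand: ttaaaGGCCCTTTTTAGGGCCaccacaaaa
Hist2h2ac, chr3:96220409-96220438, minus strand: aaaaaGGCTCTTTTTAGAGCCaccaaatct
H2afx, chr9:44335235-44335264, plus strand: acaaaGGCCCTTTTAAGGGCCaccacctcc
Counting also clustered genes without an entry in the tables, 42 genes held 5 forms of the letters, 21 to 58 bases after the stop codon (median 31). The form of Hist1h2ap, Hist3h2ba and Hist3h2a was found in 26 genes, that of Hist1h4d in 7, that of Hist1h3e in 6, that of Hist1h4i in 2 and that of Hist2h2ac in 1. The form of H2afx was found in no clustered gene. The highest clustered H2A, H2B, H4 and H1 genes, Hist1h2ap, Hist3h2ba, Hist1h4d and Hist1h1e, thus carried the stem-loop letters. The highest clustered H3 gene, Hist1h3i, did not, with 0 annotated bases after the stop codon. Hist1h2bc, the second highest clustered H2B gene, lacked them too, with 742 such bases. The highest replacement H2A, H3 and H1 genes, H2afz, H3f3a and H1f0, did not carry the letters.

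Most histone TPM in these libraries was assigned to replacement genes. How the cDNA was primed is not stated in these sources. Whether mRNAs without a poly(A) tail were captured as fully as others was not tested. Replacement genes summed to 4990 TPM in replicate 1 and 4879 TPM in replicate 2, which was 77.1% and 84.5% of all histone TPM. Clustered genes summed to 1483 and 893 TPM. By expected counts, which are not divided by length, replacement genes held 89.7% of the histone reads in replicate 1 (exact binomial 95% interval 89.5 to 89.8%) and 92.1% in replicate 2 (92.0 to 92.2%). These intervals cover counting error only. The replacement sum was 4934 ± 78.2 TPM and the clustered sum 1188 ± 417 TPM (SD, n = 2). Without Hist1h2ap, the highest clustered gene, the clustered sum was 625 ± 81.0 TPM. Within the replacement sum, H2A (1517 and 1292 TPM) and H1 (183 and 155 TPM) were higher in replicate 1. H3 (3290 and 3433 TPM) was higher in replicate 2, so these shifts partly cancelled.

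At 1 TPM or more in both libraries, 42 of the 79 members were detected, 32 of 64 clustered and 10 of 15 replacement genes. Among all 21474 protein-coding genes measured, 63.4% passed the same threshold. Replicate 1 alone had 55 members at 1 TPM or more and replicate 2 alone had 43. In neither library did 23 members reach 1 TPM, 18 of them clustered and 5 replacement genes. The 5 are H1fnt and H1foo, linker histones of the testis and the oocyte, and the H2A.B genes H2afb1, H2afb2 and H2afb3, of the testis. H2afb3 had 0 and 2 expected counts, and the other 4 were listed at 0 in both libraries. Of the clustered genes, Hist1h2aa, Hist1h2ba, Hist1h4a and Hist1h4m were listed at 0 in both. Hist1h1t, the testis linker histone, had 0 and 1 expected counts.

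**Figure D1:**
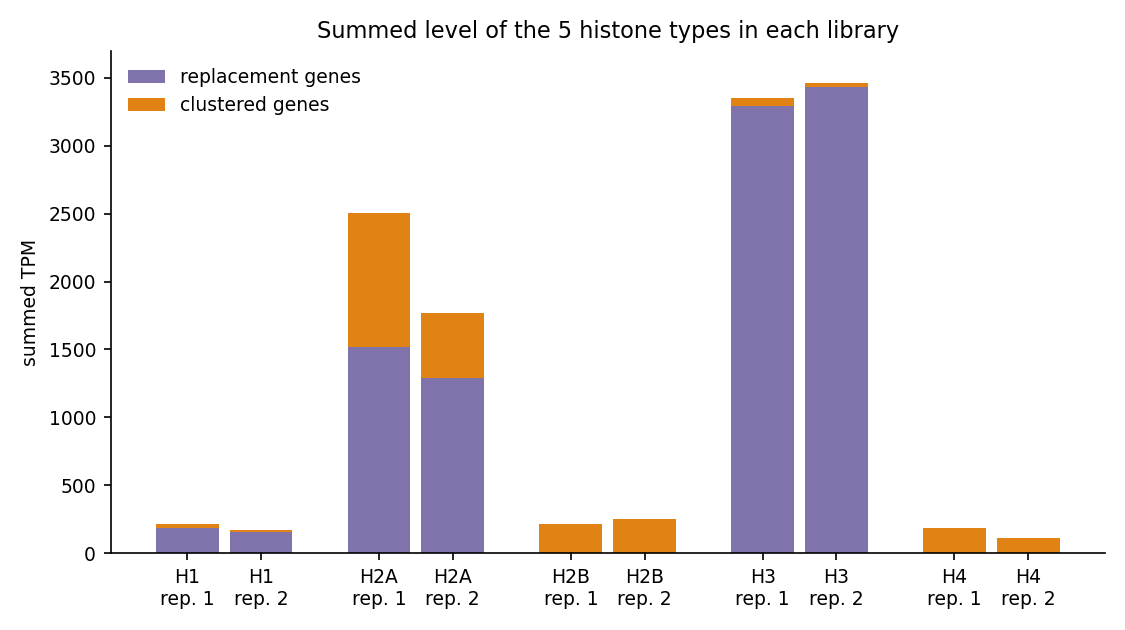
Summed TPM of each histone type in replicate 1 and replicate 2, stacked from replacement genes (purple) and clustered genes (orange). H3 is almost all replacement, H2A holds both kinds, and H2B and H4 have clustered genes only.

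H3 had the highest summed level of the 5 types, 3352 TPM in replicate 1 and 3466 TPM in replicate 2. H3f3a was the highest histone gene, at 2070 and 2212 TPM. H3f3b, which encodes the same variant protein, was at 1219 and 1221 TPM. The ratio of H3f3a to H3f3b was 1.70 in replicate 1 and 1.81 in replicate 2, or 1.76 ± 0.08 (SD, n = 2). H3f3a is spread over chr1:180800832-180813943 and H3f3b over chr11:116021912-116027962, both on the minus strand of mm10. The 12 clustered H3 genes together reached 62.1 and 33.3 TPM. Hist1h3i led them at 30.3 and 15.8 TPM, followed by Hist2h3b at 13.1 and 7.68 TPM, Hist1h3d at 4.02 and 2.26 TPM and Hist1h3h at 3.80 and 2.38 TPM. Replacement genes therefore held 98.1% and 99.04% of H3 TPM, and 99.4% and 99.7% of H3 counts.

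H2A followed with 2502 TPM in replicate 1 and 1768 TPM in replicate 2. H2afz, the gene of H2A.Z, a variant of promoters and enhancers, was at 727 and 588 TPM. H2afv, the second gene of H2A.Z, was at 196 and 149 TPM, and the ratio of H2afz to H2afv was 3.71 and 3.94 (3.83 ± 0.17, SD, n = 2). H2afy and H2afy2 encode macroH2A, whose large extra domain is a feature of silent chromatin. H2afy was at 223 and 200 TPM, and H2afy2 at 191 and 211 TPM. Their order was not the same in both libraries, with H2afy higher in replicate 1 and H2afy2 in replicate 2. H2afx, the variant that is phosphorylated at DNA breaks, was at 123 and 88.9 TPM. H2afj was at 58.6 and 54.5 TPM.

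The clustered H2A genes reached 985 TPM in replicate 1 and 476 TPM in replicate 2, and 1 gene held most of this. Hist1h2ap was at 801 TPM in replicate 1 and 326 TPM in replicate 2, from 6809 and 3303 expected counts. It lies at chr13:21833026-21833507 on the minus strand and has 1 exon of 482 bases. It made up 54.0% of all clustered TPM in replicate 1 and 36.5% in replicate 2. Without it, 63 clustered genes summed to 682 and 568 TPM. The other leading H2A genes were Hist3h2a at 54.9 and 71.4 TPM, Hist1h2ae at 45.0 and 21.9 TPM, Hist2h2aa2 at 29.2 and 26.8 TPM and Hist2h2aa1 at 7.77 and 11.2 TPM. Replacement genes held 60.6% and 73.1% of H2A TPM, and 79.9% (79.6 to 80.3%) and 84.5% (84.2 to 84.8%) of H2A counts.

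H1 genes summed to 214 TPM in replicate 1 and 172 TPM in replicate 2. H1f0, the replacement linker histone of cells that stop dividing, was at 164 and 124 TPM. H1fx was at 19.2 and 30.4 TPM, so that the ratio of H1f0 to H1fx was 8.53 in replicate 1 and 4.09 in replicate 2. Of 6 clustered H1 genes, Hist1h1e was at 14.3 and 8.84 TPM, Hist1h1c at 11.1 and 5.84 TPM and Hist1h1b at 4.76 and 1.82 TPM. Hist1h1d was at 0.62 and 0.47 TPM, and the other 2 were below 1 TPM too. Replacement genes held 85.4% and 89.9% of H1 TPM, and 92.8% (92.3 to 93.4%) and 95.02% (94.5 to 95.5%) of H1 counts. H1f0 was 11.5 and 14.1 times as high as Hist1h1e, the highest clustered H1 gene.

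H2B and H4 have no replacement gene under the rule. H2B summed to 218 TPM in replicate 1 and 253 TPM in replicate 2. Hist3h2ba was at 151 and 215 TPM, Hist1h2bc at 41.1 and 27.1 TPM, Hist1h2bj at 7.09 and 1.84 TPM and Hist2h2be at 3.77 and 3.27 TPM. H4 summed to 188 and 113 TPM. Hist1h4d gave 157 and 91.3 TPM of this, and Hist1h4c (6.86 and 6.20 TPM), Hist1h4i (6.81 and 3.85 TPM) and Hist1h4n (5.65 and 3.18 TPM) came after it. In both libraries 1 gene therefore gave most of the TPM of each type, Hist3h2ba for H2B and Hist1h4d for H4.

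Levels of the 4 core types were unequal. Summed clustered H2A was 4.52 times clustered H2B in replicate 1 and 1.88 times in replicate 2. Clustered H3 was 0.331 and 0.295 times clustered H4. With replacement genes included, H3 was 17.9 and 30.7 times H4, and H2A was 11.5 and 6.99 times H2B. The 5 highest clustered genes, Hist1h2ap, Hist3h2ba, Hist1h4d, Hist3h2a and Hist1h2bc, held 81.3% of clustered TPM in replicate 1 and 81.8% in replicate 2.

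**Figure D2:**
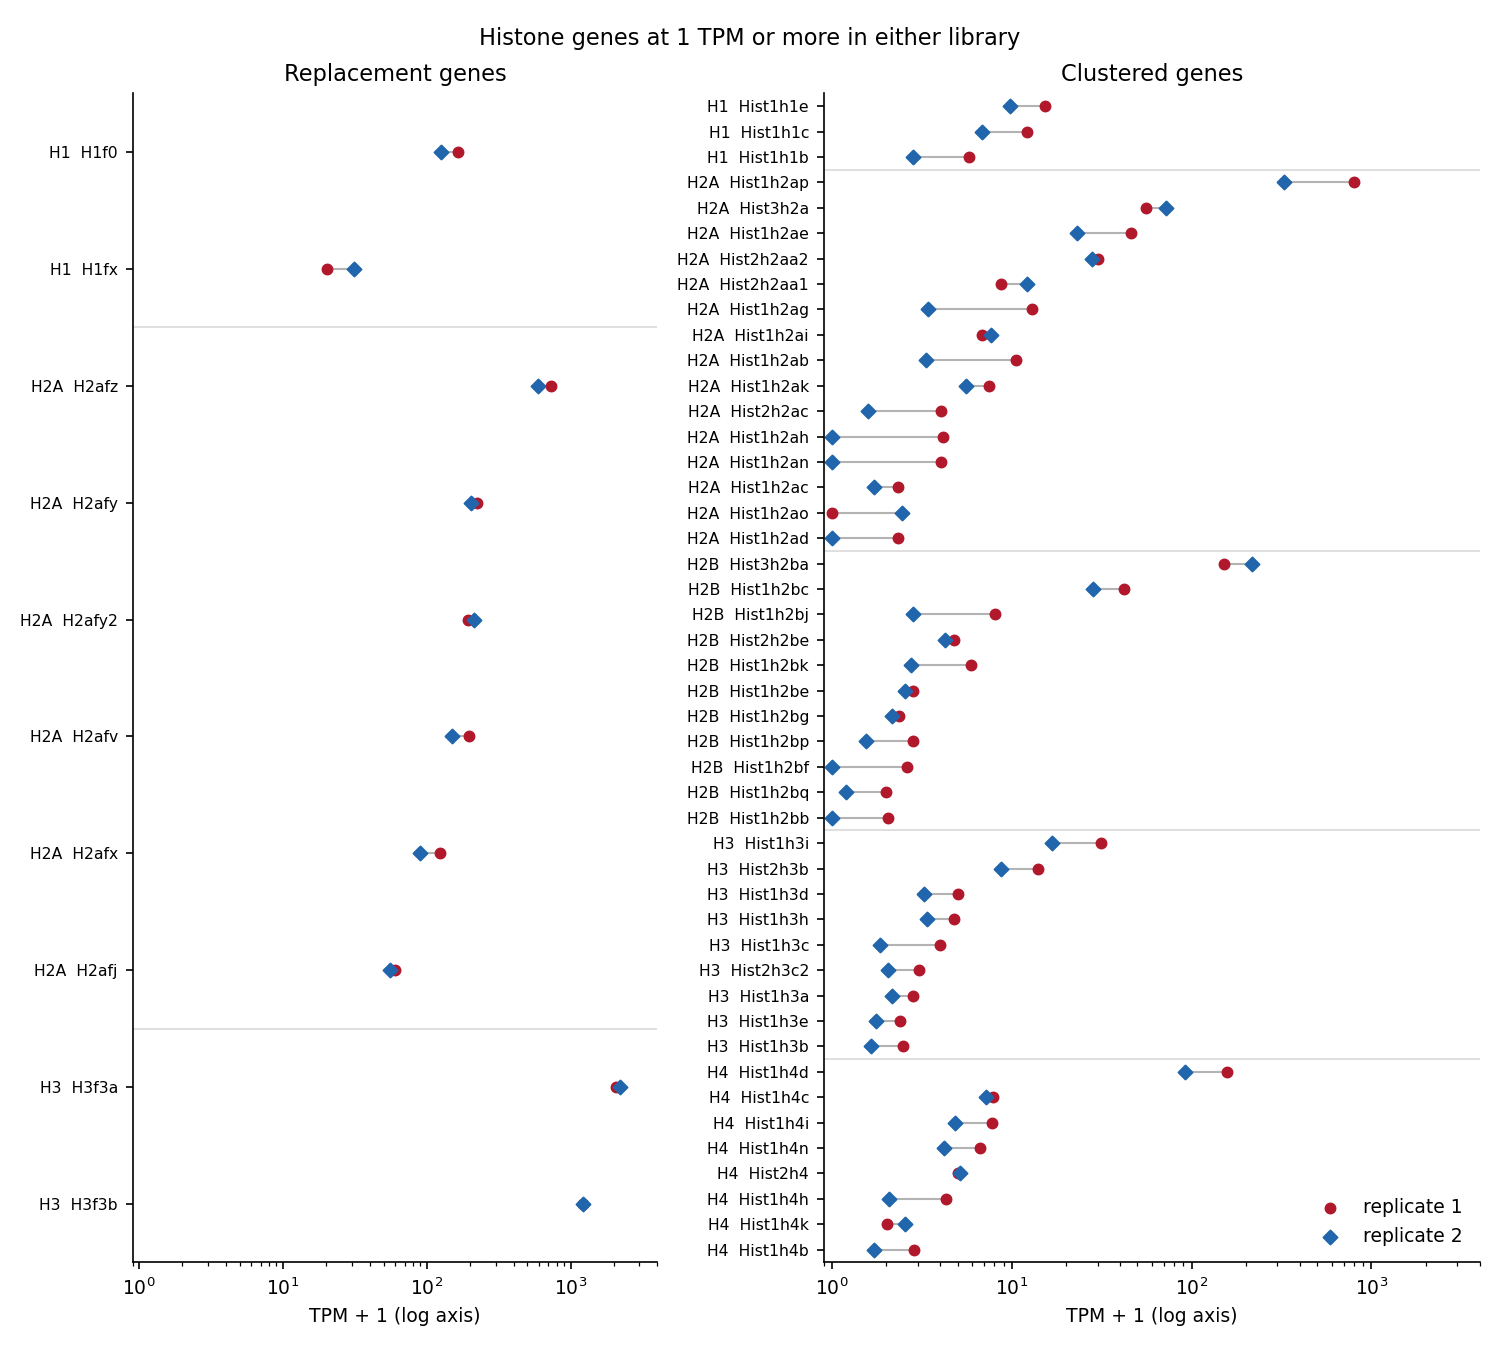
Level of each histone gene at 1 TPM or more in either library, as TPM + 1 on a log axis, with replicate 1 as circles and replicate 2 as diamonds joined by a line. Replacement genes (left) lie between H1fx and H3f3a with short lines, while most clustered genes (right) lie below 10 TPM, with Hist1h2ap, Hist3h2ba and Hist1h4d on top and replicate 1 mostly to the right.

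By cluster, Hist1 on chromosome 13 summed to 1213 TPM in replicate 1 and 551 TPM in replicate 2 over 52 genes. Hist2 on chromosome 3 summed to 63.9 and 54.8 TPM over 9 genes, of which Hist2h2aa2 was highest. Hist3 on chromosome 11 summed to 206 and 286.5 TPM over 2 genes, Hist3h2ba and Hist3h2a, which lie on the same strand. Hist4h4 on chromosome 6, the only gene of Hist4, was at 0.36 and 0.35 TPM from 22 and 26 expected counts. Hist3 therefore gave 13.9% of clustered TPM in replicate 1 and 32.1% in replicate 2 from 2 of 64 genes, and the ratio of Hist3h2ba to Hist3h2a was 2.75 and 3.01.

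Hist1 fell into 4 stretches separated by more than 100000 bases. The first, of 17 genes, summed to 867 and 365 TPM and holds Hist1h2ap and Hist1h3i. The second, of 5 genes, summed to 34.0 and 9.87 TPM, and the third, of 28 genes, to 313 and 177 TPM. The fourth holds Hist1h2aa and Hist1h2ba, both at 0. In the first and the third stretch, high genes stood beside genes near 0.

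There were 12 pairs of an H2A and an H2B gene that stood head to head, with gene starts 176 to 306 bases apart on opposite strands. By mean TPM under the genes' own identifiers, the H2A gene was the higher of the pair in 7 and the H2B gene in 4, and 1 pair was at 0. In each library taken alone, the H2A gene was the higher in 6. These values leave out Hist1h2bq-201 (1.25 and 0 TPM) and Hist1h2br-202 (2.5 and 0.93 TPM), which stand under other identifiers. With Hist1h2bq-201 counted, Hist1h2bq (1 and 0.2 TPM without it) would be above Hist1h2ao (0 and 1.45 TPM) by mean, and that pair would turn. Hist1h2ap (801 and 326 TPM) faces Hist1h2br, at 0.13 and 0.52 TPM. Hist1h2bc (41.1 and 27.1 TPM) faces Hist1h2ac, at 1.33 and 0.72 TPM. Hist1h2ae (45.0 and 21.9 TPM) faces Hist1h2bg, at 1.35 and 1.16 TPM. In 5 of the 12 pairs the mean TPM of one gene was over 10 times that of the other. Whether the counting used strand is not stated in these sources.

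**Figure D3:**
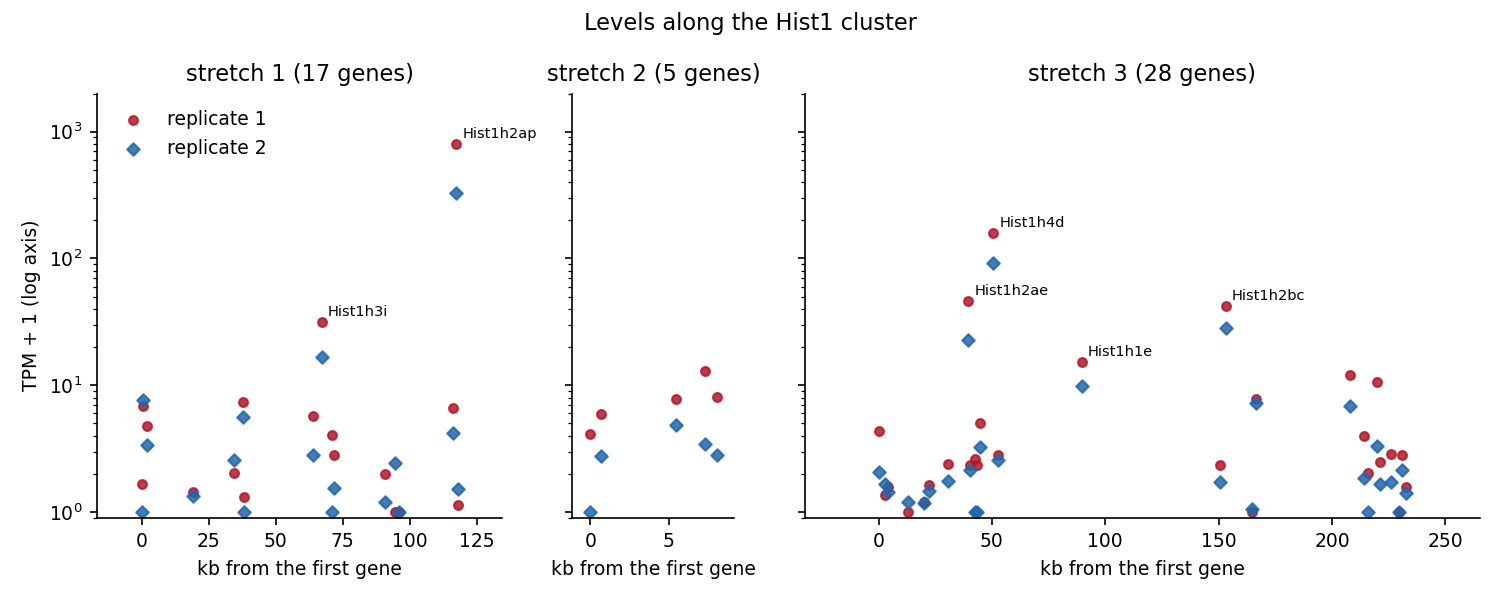
TPM + 1 (log axis) of each gene along the first 3 stretches of Hist1, by distance in kb from the first gene of the stretch, for replicate 1 (circles) and replicate 2 (diamonds). Genes of 10 TPM or more on average are named, and Hist1h2ap and Hist1h4d stand above neighbours that are mostly below 10 TPM.

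Many of these genes are near copies of each other, which limits what a value of 1 gene means. The coding sequence of 49 of the 64 clustered members was at least 95% identical to that of another member over at least 90% of its length, 22 were at least 99% identical and 10 were 100% identical. The median identity to the nearest member was 98.7%. Hist1h2ap and Hist1h2ao have identical coding sequences, as do Hist2h2aa1 and Hist2h2aa2, so their reads are shared out by a model. Hist1h4d (nearest member 94.2%), Hist3h2ba (91.5%) and Hist3h2a (89.8%) have no member at 95%. Of the replacement members, 2 had another member at 95%. H3f3a had 14 pseudogene copies at 95% or more, led by H3f3c at 304 and 370 TPM, and the copies of H2afz, led by Gm8203, summed to 243 and 187 TPM. Levels of H3f3a and H2afz are uncertain to the extent that reads of these copies cannot be told from theirs.

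The tables give bounds for the posterior mean TPM of each gene, at a level that the headers do not state. Relative to the value, the bounds of clustered members at 1 TPM or more in either library had a median width of 0.831 in replicate 1 and 1.12 in replicate 2. Replacement members had 0.0510 and 0.0515, and all annotated genes 0.189 and 0.182. For Hist1h2ap the posterior mean was 777 TPM (bounds 758 to 798) in replicate 1 and 317 TPM (304 to 328) in replicate 2. For its identical copy Hist1h2ao it was 1.78 TPM (1.25e-07 to 5.69) and 2.56 TPM (0.0796 to 5.89). The deposited values thus placed nearly all reads of this pair on Hist1h2ap.

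**Figure D4:**
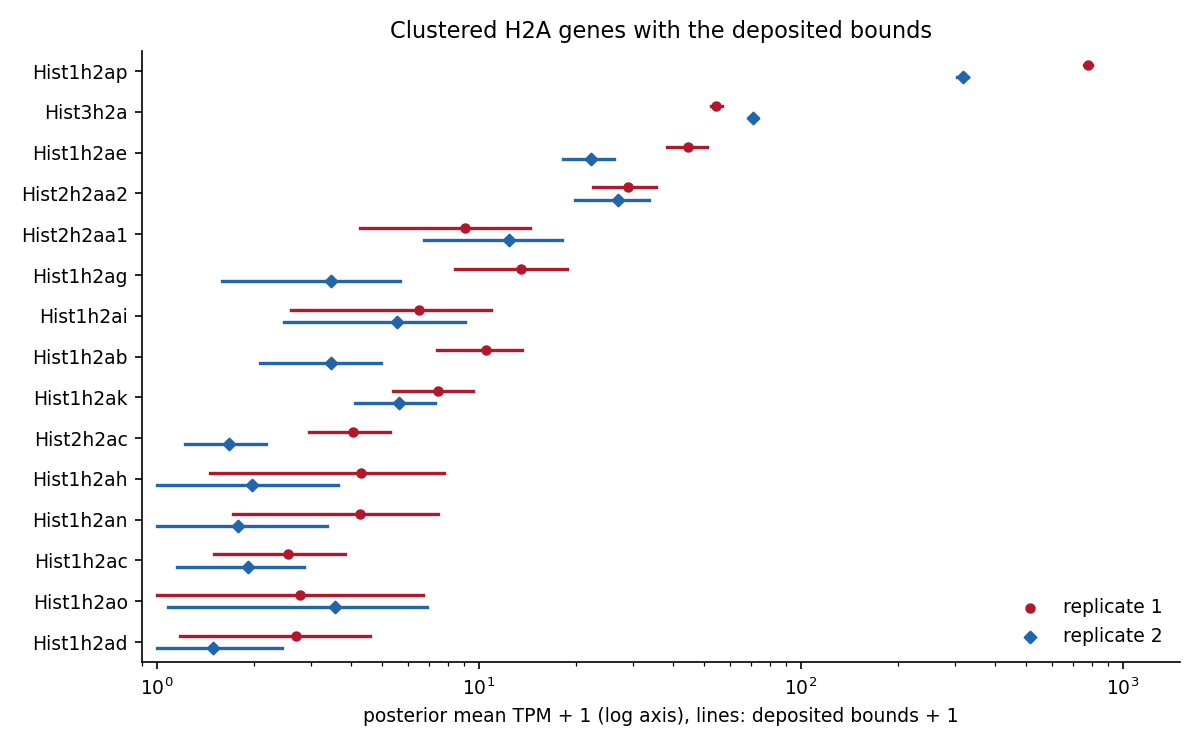
Posterior mean TPM + 1 (symbols, log axis) and deposited bounds (lines) of the 15 clustered H2A genes at 1 TPM or more in either library, replicate 1 in red and replicate 2 in blue. Hist1h2ap, Hist3h2a and Hist1h2ae have bounds that do not meet between the libraries, while those of Hist1h2ah, Hist1h2an and Hist1h2ao overlap.

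Clustered genes were mostly higher in replicate 1, and replacement genes were not far apart. Of 46 clustered genes at 1 TPM or more in either library, 39 were higher in replicate 1, with a median log2 ratio of (TPM + 1) in replicate 1 over replicate 2 of 0.68. Of 10 replacement genes, 6 were higher in replicate 1, with a median of 0.13. Over 17222 annotated genes that passed the same filter, 53.7% were higher in replicate 1 and the median was 0.02. A log2 ratio of at least 1 was seen in 15 clustered and 0 replacement genes, against 6.38% of all annotated genes. Of the 46 clustered genes, 45 reached 1 TPM in replicate 1, 33 in replicate 2 and 32 in both. Those that passed the filter only through replicate 1 are higher there by selection. They are part of the 39, and some are among the 15. A log2 ratio of at most -1 was seen in 1 clustered gene, Hist1h2ao, and 0 replacement genes, against 1.05%. The deposited bounds lay wholly higher in replicate 1 for 15 clustered genes (22.5% of all annotated genes) and wholly lower for 2 (14.7%), the 2 Hist3 genes. For replacement genes, the bounds lay higher in 5 and lower in 3. The count of 15 clustered genes at a log2 ratio of at least 1 depended on the scale, with 2 at a pseudocount of 5 and 3 in counts scaled by TMM and not divided by length, where the median of the clustered genes was 0.31 and 0.38.

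The clusters differed in this. The summed TPM of replicate 1 over that of replicate 2 was 2.20 for Hist1, 1.17 for Hist2 and 0.719 for Hist3. Without Hist1h2ap, the Hist1 ratio was 1.82. Hist1h2ap had a ratio of 2.46, Hist1h4d of 1.72 and Hist1h2bc of 1.51, whereas Hist3h2ba had 0.702 and Hist3h2a 0.768. Hist1h2ag (11.98 and 2.41 TPM), Hist1h2ab (9.53 and 2.33 TPM) and Hist1h2bj were among the largest log2 ratios, at 1.93, 1.66 and 1.51. Hist1h2ah had 3.13 TPM in replicate 1 and was listed at 0 in replicate 2, and Hist1h2an had 3.04 TPM and was listed at 0. Both are near copies of other H2A genes, and their bounds overlapped between the libraries. The lowest ratios after Hist1h2ao were those of H1fx (-0.64), Hist3h2ba (-0.51), Hist2h2aa1 (-0.48) and Hist3h2a (-0.38).

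The S phase and mitosis genes were higher in replicate 1 too. Their median log2 ratio was 1.21, and 11 of 17 had a ratio of at least 1. Pcna, the sliding clamp of DNA replication, was at 123 and 80.5 TPM, Cdk1 at 116 and 44.7 TPM and Mcm6, of the replicative helicase, at 91.1 and 42.9 TPM. The lowest of the list was Mki67 at 8.77 and 3.21 TPM. Thymocyte markers at 1 TPM or more had a median log2 ratio of 3.52 (9 genes), but of these only Lck reached 1 TPM in replicate 2. The filter thus set the others higher in replicate 1. It left out Cd8a, Cd4 and Dntt, with log2 ratios of 0.57, 0.40 and 0.15. The list was led by Cd3g, Lck (81.5 and 9.17 TPM) and Cd3e (39.9 and 0.06 TPM), with Dntt lowest at 0.30 and 0.17 TPM. Neural tube markers had a median of -0.25, with 0 of 10 higher in replicate 1. The part of dividing cells and of thymocytes in the ratio of the clustered genes was not tested.

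**Figure D5:**
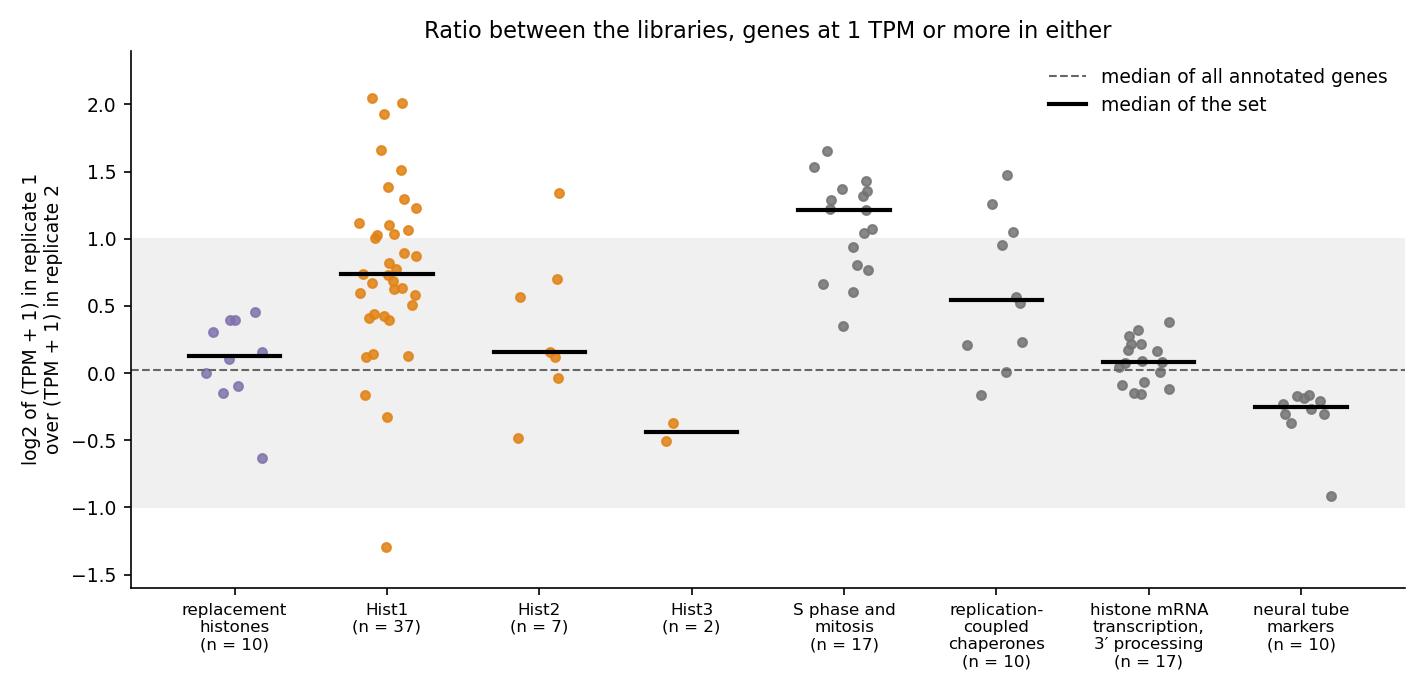
log2 ratio of (TPM + 1) in replicate 1 over replicate 2 for single genes at 1 TPM or more in either library (points), with the median of each set (bars) and of all annotated genes (dashed line). Hist1 (median 0.74) and the S phase genes (1.21) lie above the line, replacement histones near it and both Hist3 genes below it.

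The highest Hist3 genes also differed from most of Hist1 in their annotated 3′ end. A poly(A) signal (AATAAA or ATTAAA) within the last 50 bases of an annotated transcript was found in 17 of 64 clustered and 10 of 15 replacement members. The 17 clustered genes with the signal summed to 286 TPM in replicate 1 and 330 TPM in replicate 2. The 47 without it summed to 1197 and 563 TPM. The 2 Hist3 genes were among the 17, and the 15 others summed to 80.2 and 43.7 TPM, of which Hist1h2ae gave 45.0 and 21.9 TPM. Of the 9 among these 15 at 1 TPM or more in either library, 8 were higher in replicate 1. Hist3h2a and Hist3h2ba, with H2afx and 8 other clustered genes, held the stem-loop letters and ran on for at least 100 bases past them to such a signal. Among clustered genes at 1 TPM or more in either library, the median log2 ratio was 0.69 with a signal (11 genes) and 0.67 without (35 genes). For the 7 of them with the letters, the 100 bases and the signal, both Hist3 genes included, the median was 0.14. Of these 7, 4 were higher in replicate 1. Whether the 3′ end bears on the ratio was not tested. Gene models in the tables come from an older release, and for 20 of the 64 clustered members, Hist1h4d and Hist1h2ae among them, the model had another length than in release M21. Of RNAs that lack a poly(A) tail, Rn7s1, Rn7s2, Rn7sk, Rpph1 and Rmrp were all above 1 TPM. They ran from Rmrp at 3.02 and 2.72 TPM (11.5 and 12.4 expected counts) to Rn7s1 at 14319 and 13861 TPM. How fully such RNAs were captured was not tested.

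Promoter sequences from RefSeq on GRCm38.p6, 250 bases before to 50 after the start, were matched to 73 of the 79 members, 59 clustered and 14 replacement. Over all genes named by the rule, 63 clustered and 14 replacement promoters were searched on both strands for 3 motifs. TATAAA, the letters of the TATA box, was in 55.6% of clustered and 7.14% of replacement promoters, against 13.6% of all 32851 promoters of the table. Matches counted at any position, such as -33 in Hist1h1a and -250 in Hist1h4f relative to the start. The CCAAT box CCAAT was in 85.7% and 71.4%, against 37.4%. The octamer ATTTGCAT, bound by Oct factors, was in 22.2% and 7.14%, against 1.74%. By type, CCAAT was in 100% of clustered H1, H2A, H2B and H3 promoters and in 25% of H4 promoters. The octamer was in 7 of 18 H2A and 7 of 17 H2B promoters and in 0 of the H1, H3 and H4 promoters. Promoter windows of head-to-head H2A and H2B genes overlap, so 1 site can be counted for both genes. The octamer at -124 in Hist1h2aa, for example, is the one at -164 in Hist1h2ba. The shares of H2A, H2B and all clustered promoters are therefore not from separate sequences. The promoters of the highest clustered H2A, H2B and H4 genes are shown because these genes lead the clustered levels. That of H3f3b is shown because it was the only replacement promoter with TATAAA or the octamer. These promoters do not stand for their types, since Hist1h2ap lacks TATAAA, Hist1h4d has a CCAAT box and none of the 3 clustered promoters has the octamer. The 250 bases before the RefSeq start are given on the gene's strand with motifs in capitals, and no motif overlaps another in them.
Hist1h2ap, chr13:21833476-21833725, minus strand: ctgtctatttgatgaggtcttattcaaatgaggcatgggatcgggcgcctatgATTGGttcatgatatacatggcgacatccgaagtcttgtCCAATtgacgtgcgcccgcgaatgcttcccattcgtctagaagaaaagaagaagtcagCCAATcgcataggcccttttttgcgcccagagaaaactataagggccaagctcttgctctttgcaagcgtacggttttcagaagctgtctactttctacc
Hist3h2ba, chr11:58948661-58948910, plus strand: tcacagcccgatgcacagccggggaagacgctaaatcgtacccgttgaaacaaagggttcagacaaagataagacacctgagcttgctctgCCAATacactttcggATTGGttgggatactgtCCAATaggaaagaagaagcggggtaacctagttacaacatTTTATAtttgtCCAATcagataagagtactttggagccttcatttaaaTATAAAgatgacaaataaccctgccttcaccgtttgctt
Hist1h4d, chr13:23581318-23581567, plus strand: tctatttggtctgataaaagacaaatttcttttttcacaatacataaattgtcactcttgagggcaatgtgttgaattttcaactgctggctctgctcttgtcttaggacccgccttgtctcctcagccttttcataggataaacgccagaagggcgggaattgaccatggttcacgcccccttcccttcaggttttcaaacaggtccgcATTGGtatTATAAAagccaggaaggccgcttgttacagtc
H3f3b, chr11:116024505-116024754, minus strand: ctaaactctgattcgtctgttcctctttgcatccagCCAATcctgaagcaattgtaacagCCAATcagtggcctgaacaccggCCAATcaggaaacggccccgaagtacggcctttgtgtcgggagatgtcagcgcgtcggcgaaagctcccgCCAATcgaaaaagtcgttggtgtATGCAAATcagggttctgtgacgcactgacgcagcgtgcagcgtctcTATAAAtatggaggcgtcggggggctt
Hist1h2ap has 3 CCAAT boxes and no TATAAA, Hist3h2ba has 4 CCAAT boxes and 2 TATA boxes, and Hist1h4d has 1 of each close to the start. H3f3b has 4 CCAAT boxes, 1 TATA box and 1 octamer. A match is a description of the letters and not a bound site.

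Of the members with an entry, 10 had more than 1 transcript, 4 clustered and 6 replacement genes. H3f3a-201 held 68.1% of H3f3a TPM in replicate 1 and 69.0% in replicate 2, H3f3a-204 22.3% and 21.6%, and H3f3a-205 7.79% and 7.63%. H3f3b-201 held 90.1% and 89.3% of H3f3b. H2afy-201 held 65.5% and 66.2% of H2afy, and H2afy-204, a transcript annotated without a coding sequence, 21.7% and 23.0%. H2afz-201 held 90.4% and 85.4% of H2afz, and H2afz-207 8.12% and 12.3%. H2afv-201 held 62.9% and 57.3% of H2afv, and H2afv-202 the rest. Shares of H3f3a, H3f3b and H2afy transcripts thus moved by under 2 percentage points between the libraries, and those of H2afz and H2afv by 4 to 6 points.

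Genes that make, process and place histones were mostly detected in both libraries. Of 17 genes for transcription and 3′ processing of histone mRNA, 16 were at 1 TPM or more in both, with a median log2 ratio of 0.09. Slbp, the stem-loop binding protein, was at 132 and 101 TPM, Cstf2t at 60.7 and 67.3 TPM and Cpsf3, the endonuclease of 3′ ends, at 66.1 and 54.4 TPM. Zfp473, which acts in histone mRNA processing, was lowest at 1.14 and 0.90 TPM. All 10 chaperones of replication-coupled assembly were detected, with a median of 0.54 and 3 at a log2 ratio of at least 1. Tonsl was at 316 and 354 TPM, Rbbp7 at 257 and 179 TPM, Rbbp4 at 232 and 200 TPM, and Mms22l was lowest at 9.32 and 3.98 TPM. All 13 genes for placing replacement histones were detected, with a median of 0.09 and none at a log2 ratio of at least 1. Atrx, a partner of Daxx in placing the variant H3, was at 190 and 191 TPM, Vps72, an H2A.Z chaperone, at 124 and 117 TPM, and Znhit1 at 103 and 112 TPM, with Ubn1 lowest at 8.87 and 6.98 TPM. All 8 genes of FACT and nucleosome assembly proteins were detected, with a median of 0.09, led by Nap1l5 at 376 and 431 TPM, Nap1l4 at 225 and 225 TPM and Ssrp1 at 156 and 118 TPM, with Spty2d1 lowest at 5.27 and 4.46 TPM.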

How the data were processed

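Transcriptome alignments on mm10 with GENCODE release M4 underlie the tables, per notes in the deposited files. Which aligner and quantifier were used, and whether strand was used, is not stated in these sources. For each gene and transcript the authors deposited an expected count, per the file headers, which divides reads among matching transcripts by a model. The authors also deposited TPM, scaled over all entries with spike-ins, and FPKM. Posterior mean TPM was deposited with the bounds of its interval, used here as a score. Deposited transcript tables give each transcript's percent of its gene.

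Identifiers without version were matched to GENCODE M21 (42462 matched, 884 did not). Ratios are log2((TPM + 1) in replicate 1 over (TPM + 1) in replicate 2). Expected counts were rounded for TMM factors (edgeR 4.0.16) and size factors (DESeq2 1.42.0) in R 4.3.3, used only as alternatives. Coding sequences were aligned with BLAST 2.17.0. Python 3.11.15 (pandas 2.3.3, numpy 2.4.6, scipy 1.17.1) did the rest. Only the log2 ratio threshold was tested on simulated counts, and the sequence steps were not. A count of 3 corresponded to 0.353 TPM for Hist1h2ap and 0.159 TPM for H3f3a in replicate 1.

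Members and gene lists were chosen with earlier results of these data known. Named genes are every replacement gene at 1 TPM in either library, the 4 highest clustered genes of each type, the highest of each cluster, the 5 largest and 5 lowest log2 ratios, and the 3 highest and the lowest gene of each list. Genes named beyond these, such as those of the sequence sets, head-to-head pairs, near copies and transcripts, were picked with their values in view. The labels call the libraries biological replicates, from embryo pools of different size, and the spread between them may be technical in part.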

Additional observations from a re-analysis of the deposited data

How the results depend on the processing

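No paired analysis was possible because the 2 libraries form 1 group. Of the 144 alternative values of the summaries, 115 stayed within the spread between replicates or 1.5 times the count. For the shares, values in FPKM or from 1 library alone could only fall within that spread. They are among the 115 and say nothing on stability. For the log2 ratios, the spread was set from the size of the ratio itself, so a large fall could still count as within it. None of the 35 named genes recomputed, each at 1 TPM or more in either library, turned in direction. Hist1h1d and Hist4h4, below 1 TPM in both, were not recomputed, and no direction is read for them. Detection at 5 TPM left 24 members, 14 of them clustered, and 18 clustered genes passed 1 CPM, expected counts scaled to a common total and not divided by length. In CPM, clustered genes were 9.12% of histone signal (19.2% in TPM), Hist1 55.1% and Hist3 38.3% of clustered (71.8% and 23.0%). H1 was 5.44%, H2B 2.01% and H4 0.777% of all histone in CPM, and the replacement share 93.9% in H1, 82.2% in H2A and 99.5% in H3. Leaving out Hist1h2ap, chosen after seeing the data, gave 11.2% clustered, 50.1% Hist1, 40.3% Hist3, 3.47% H1, 28.2% H2A and a replacement share of H2A of 89.4%. With no filter on low values the median ratio of replacement genes was 0. Clustered genes at a log2 ratio of at least 1 numbered 15 as reported, 2 with a pseudocount of 5, 5 with a filter of 5 TPM, and 3 in CPM with TMM or DESeq2 scaling, where the short genes lie closer to the pseudocount. At most -1, the count was 0 with a pseudocount of 5, the 5 TPM filter, posterior mean TPM, TMM and DESeq2 scaling. The summed replacement log2 ratio was 0.03 in TPM and -0.0012 with DESeq2 size factors. Each library alone gave 43 to 55 detected members, 15.5 to 22.9% clustered, 61.7 to 81.8% Hist1, 13.9 to 32.1% Hist3 and 36.5 to 54.0% Hist1h2ap, with a replacement share of 85.4 to 89.9% in H1, 60.6 to 73.1% in H2A and 98.1 to 99.04% in H3. Depth limits genes near 1 TPM most, since 3 counts were 0.353 TPM for Hist1h2ap and 0.460 TPM for Hist1h4d in replicate 1.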

Other observations

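Histone-like genes outside the rule were measured too. Cenpa, the H3 variant of centromeres, was at 54.2 TPM in replicate 1 and 23.8 TPM in replicate 2, a log2 ratio of 1.16. Hjurp, the chaperone of Cenpa, was at 68.7 and 51.9 TPM. The pseudogene Hist1h2aj was at 2.73 TPM in replicate 1 and listed at 0 in replicate 2, and Hist3h2bb-ps, inside the Hist3 cluster, was at 1.75 and 2.89 TPM. H3f3aos, the antisense RNA at the start of H3f3a, was at 0.22 and 0.38 TPM.

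A few transcripts of histone genes stand under other gene identifiers in the tables and were left out of the sums and of the head-to-head pairs. Hist2h2bb-201 was at 2.42 and 0.49 TPM, Hist1h2br-202 at 2.5 and 0.93 TPM, Hist1h2bq-201 at 1.25 and 0 TPM and Hist2h3c1-202 at 0 and 0.15 TPM. Of the erythroid markers, Hbb-bs, Hba-a1 and Alas2 were highest, at 3386, 2483 and 40.3 TPM in replicate 1 and 3017, 2133 and 30.9 TPM in replicate 2, with a median log2 ratio of 0.37 over 6 genes. Epb42 was lowest, at 0.29 and 0.62 TPM. Of the germ cell markers, Ddx4 was highest, at 0.72 and 0.95 TPM, with Prm1 at 0.73 and 0.41 TPM, Sycp3 at 0.41 and 0.10 TPM and Tnp1 at 0 in both libraries. The RNAs without a poly(A) tail had a median log2 ratio of 0.05.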
